A study of Mus musculus with 5 samples.

Results

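Oxidative and reductive drug metabolism in the airway rests on a few enzyme families, and 69 of their genes were followed in single cells of the mouse trachea. They are the mouse features whose symbol starts with Cyp1, Cyp2, Cyp3, Cyp4, Aldh, Akr1, Ces or Cbr, or with Fmo or Adh and a digit, and that reached 50 UMIs (unique molecular identifiers, single counted transcripts) over all mouse barcodes. Of 170 symbols that match these names among 30907 mouse features, 56 had no UMI, 45 had fewer than 50, and 69 were kept. The summed UMI count alone made that choice, and total level is therefore no result. Just inside the minimum were Cyp4f18 with 63 UMIs and Ces1b with 68, and just outside it were Cyp2r1 with 49 and Aldh1a2 with 47. The name rule also takes in a few relatives that are not drug-metabolising enzymes, namely Cyp20a1, Cyp26b1, Cyp27a1, Cyp39a1, Aldh18a1 and Aldh1l1.

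The study placed basal cells made from mouse embryonic stem cells (iBCs) into the tracheas of adult wild-type mice of strain 129 X1/S1. Recipients were injured with the detergent polidocanol (2%) through the trachea and received 6000000 iBCs 5 hours later. One recipient was taken 40 days and the other 56 days after transplantation, and live Calcein Blue-positive cells of each were sorted by GFP. GFP-positive cells form the donor-derived group and GFP-negative cells the endogenous group (n = 2 libraries each, 1 per day). A control mouse of the same background and sex, with neither injury nor transplant, gave 1 library of Calcein Blue-positive cells. The strain of the stem cell line was not among the labels used, GFP is what marks the donor-derived cells, and both donor-derived libraries come from one kind of transplanted cell. Replicates differ in day as well as in animal.

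Cytochrome P450 monooxygenases insert oxygen into lipophilic compounds with electrons passed on by P450 reductase, and flavin-containing monooxygenases (Fmo) oxidise nitrogen and sulphur. Alcohol dehydrogenases (Adh), aldehyde dehydrogenases (Aldh), aldo-keto reductases (Akr1) and carbonyl reductases (Cbr) interconvert alcohols, aldehydes, ketones and acids, and carboxylesterases (Ces) split esters. In rodent airways, club cells are the secretory cells best known for P450 activity, and they are injured when their P450s activate compounds such as naphthalene. Basal cells are the stem cells of the tracheal epithelium and give rise to secretory and ciliated cells.

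The 5 libraries held 808 to 1743 barcodes and 16580940 to 25569394 UMIs. In the control, 192 barcodes mapped mostly to the human reference and were left out, which left 7493284 mouse UMIs there and 6554 cells in all. Pairs of libraries shared 0 to 2 barcodes. Clusters were made without the member genes and named from marker lists that contain no member. Basal-like cells numbered 723 and 1101 in the donor-derived libraries (day 40 and day 56), 345 and 230 in endogenous libraries and 71 in the control mouse. Secretory-like cells numbered 244 and 400, then 256 and 201, then 258, and ciliated-like cells 41 and 117, then 231 and 194, then 154. The 10 basal markers summed to 7706 to 11392 CPM (counts scaled to a common library total) in basal-like cells of the 5 libraries and to 86.1 to 2341 in secretory-like and ciliated-like cells. Single markers went both ways between the groups. In basal-like cells Krt14 was at 3365 and 1796 CPM in donor-derived against 325 and 547 in endogenous libraries. Aqp3 was at 287 and 174 against 1052 and 888, and Trp63 at 195 and 235 against 403 and 451. In secretory-like cells Bpifa1 was at 419 and 430 against 48212 and 22023, and Hp at 1283 and 1812 against 963 and 1281.5. Cluster 4 scored highest for the goblet list, which was joined to the secretory class, and Muc5ac and Muc5b were among its leading genes. The member Cyp4a12b was among the 10 leading genes of cluster 1. Donor-derived and endogenous cells of one class lay mostly in different clusters: basal-like cells in clusters 0, 3, 9 and 18 against cluster 2, secretory-like cells in cluster 4 against cluster 1, and ciliated-like cells in cluster 14 against clusters 6 and 10. EGFP was detected in 56.2% (day 40) and 46.2% (day 56) of the cells of the donor-derived libraries, in 0 of 1300 endogenous cells on day 40 (exact 95% upper limit 0.283%) and in 1 of 1219 on day 56. Of the donor-derived ciliated-like cells, 19 of 41 on day 40 and 5 of 117 on day 56 lay in clusters made almost wholly of endogenous cells, where EGFP was detected in 16 of 56 and 5 of 17 cells of the donor-derived libraries over all cell types. All 5 libraries carried Y-linked transcripts, with Ddx3y at 23.4 to 46.5 CPM and the female transcript Xist at no more than 3.33 CPM in the 3 classes, so the groups did not differ in sex.

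Levels below are CPM scaled within a class by the trimmed mean of M-values (TMM), and each series of values runs through donor-derived day 40 and day 56, endogenous day 40 and day 56, and control. Donor-derived and endogenous sums were compared within a class by edgeR's quasi-likelihood test over all genes, with Benjamini-Hochberg adjustment and a threshold of 0.05. A member is said to have risen or fallen in donor-derived cells only where it passed. The control is a single library and entered no test.

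In basal-like cells, 15 members fell and 4 rose in donor-derived against endogenous cells among the 55 that passed the low-count filter. Of all 11551 genes tested there, 6.79% fell and 4.29% rose. The median log2 change of the tested members was -0.34. With 1 library left out, this median ran from -0.63 (without the donor-derived library of day 56) to -0.26 (without the endogenous library of day 40). Without either endogenous library fewer members and fewer of all genes passed. Without either donor-derived library more members and more of all genes passed. Aldh3a1, Cbr2, Cyp2f2 and Fmo6 kept their call in all 14 alternatives and Cyp4a12b in the 9 that tested it. Without the endogenous library of day 40, Adh1 and Aldh3b1 lost their call, and without that of day 56 Aldh1l1 and Fmo5. Cyp2a5 lost it without the endogenous library of day 40 or either donor-derived one, and Akr1b3, Akr1b8, Akr1c13, Akr1e1, Aldh7a1, Ces2b, Ces2e and Fmo1 without either endogenous one (Ces2b also without the donor-derived library of day 40). Cyp2a5 and Fmo1 were also lost at a clustering resolution of 2.0 and with hillock-like cells joined to the class, and Akr1c13 with DESeq2.

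In secretory-like cells, 18 of the 57 tested members fell and 10 rose. Among all 10501 genes tested, 9.77% fell and 7.61% rose, and the median of the tested members was -0.43. Leaving out any single library moved that median to between -0.56 and -0.31. Adh5, Cbr2, Cyp4b1 and Cyp4f15 lost their call without the endogenous library of day 40, Akr1c12, Akr1c13 and Cyp3a13 without that of day 56, Akr1c12 and Fmo6 without the donor-derived library of day 40, and Cyp4f15 and Fmo6 without that of day 56. DESeq2 did not call Akr1c12, Akr1c13, Cyp3a13, Cyp4f15 or Ces1g, and Cyp4b1 and Cyp4f15 lost their call when members were allowed to shape the clusters.

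In ciliated-like cells, 6 of 49 tested members fell and 1 rose, beside 1.93% and 1.92% of 10513 genes (3.85% in either direction), and the median of the members was -0.24. With 1 library left out, this median ran from -0.47 (without the donor-derived library of day 40, the one with 41 cells) to -0.19 (without the endogenous library of day 40). Without either endogenous library the members' calls were lost, as were most of those of all genes. Without either donor-derived library more members and more of all genes passed. Without the donor-derived cells in endogenous clusters, 14 fell and 1 rose, while the genes called lower went from 203 of 10513 to 687 of 10518. DESeq2 called 3 lower and 0 higher (12 had an unadjusted p under 0.05), beside 138 lower and 170 higher of all 10513 genes.

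Across the 3 classes, 35 members were called at least once, 26 of them lower and 10 higher in at least 1 class. In basal-like and secretory-like cells alike, 9 fell (among them Adh1, Akr1b3, Akr1e1, Aldh1l1, Cbr2, Cyp2a5, Cyp4a12b and Fmo6) and 4 rose (Akr1b8, Akr1c13, Aldh3b1 and Aldh7a1). Both classes were compared in the same 4 libraries. Of all genes tested, 11.1% were called in either direction in basal-like, 17.4% in secretory-like and 3.85% in ciliated-like cells. The share of all genes called in both classes, or in at least 1 class, is not given. The counts across classes are therefore not read as a result about the members. Akr1b3 and Akr1e1 fell in all 3. Cyp4a12b was called lower in all 3, in ciliated-like cells from endogenous levels close to an estimate for free RNA of secretory cells. Akr1b8 was the single member called in opposite directions, higher in the first 2 classes and lower in ciliated-like cells.

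**Figure D1:**
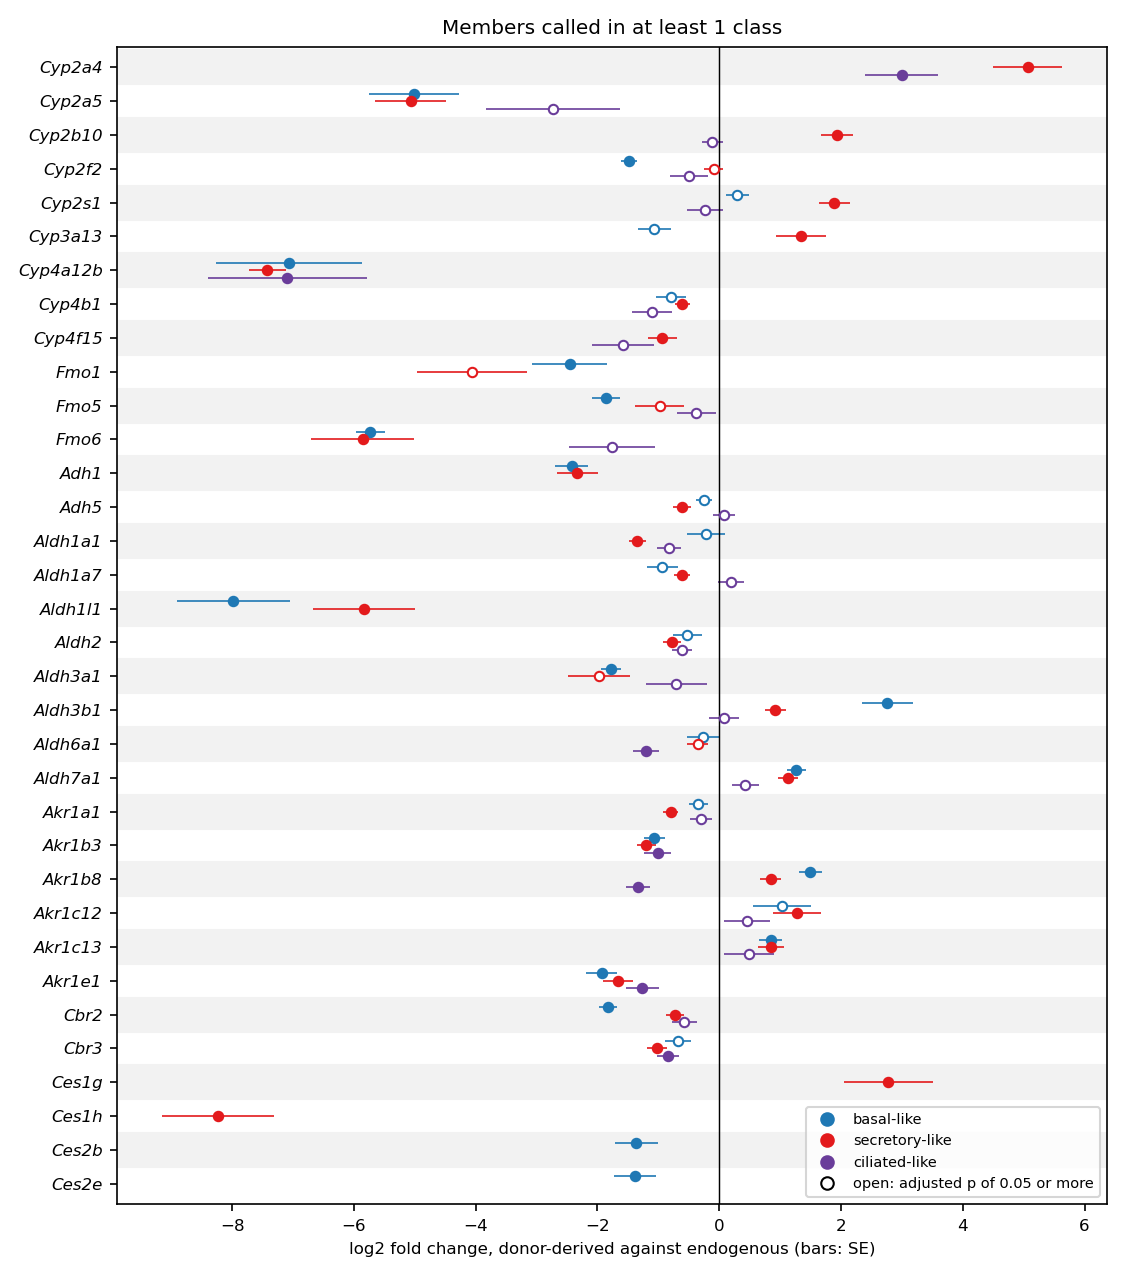
Log2 fold change of donor-derived against endogenous cells (x axis) for 34 members called in at least 1 class, grouped by family, with the standard error as bars. Filled points passed the test (blue basal-like, red secretory-like, purple ciliated-like) and open points did not; points far to the left, such as Cyp4a12b, Aldh1l1 and Ces1h, rest on 0 to 6 UMIs in donor-derived cells.

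Among the P450s, the largest absolute differences were in Cyp2a5, an enzyme known for oxidising coumarin and nicotine. In secretory-like cells it stood at 179, 87.8, 5126, 3722 and 6748 CPM. Every endogenous and control library lay far above both donor-derived ones, a log2 change of -5.07 (SE 0.59, adjusted p = 0.0383). The call was lost without the low-count filter and when members were allowed to shape the clusters. In basal-like cells it was at 1.99, 0.626, 57.4, 22.1 and 129 CPM, with a log2 change of -5.01 (SE 0.74, adjusted p = 0.0258). In ciliated-like cells it was at 1568, 273, 6293, 5917 and 7073 CPM and did not pass (log2 change -2.73, SE 1.1, adjusted p = 0.357). With the donor-derived cells of endogenous clusters left out, the ciliated-like donor-derived levels were 586 and 231 CPM and the difference passed (adjusted p = 0.0159).

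Cyp2a4, which lies in the same Cyp2 gene cluster on chromosome 7 as Cyp2a5 and encodes a near-identical protein known for steroid 15-alpha-hydroxylation, went the other way in secretory-like cells. Its levels were low, at 7.5, 14.5, 0.406, 0.218 and 1.16 CPM in secretory-like cells, from 143 donor-derived and 3 endogenous UMIs. The donor-derived libraries lay 35.3-fold above the endogenous ones, with a 95% counting interval of 12.7 to 186 (log2 change 5.07, SE 0.56, adjusted p = 2.84e-06). Over all mouse barcodes Cyp2a4 had 81 and 125 UMIs in donor-derived libraries, 9 and 3 in endogenous ones and 9 in the control. It thus reached the minimum of 50 UMIs only through the donor-derived libraries, a choice that favours this direction. In ciliated-like cells it rose as well, at 11.9, 9.83, 1.98, 0.626 and 3.08 CPM (log2 change 2.99, SE 0.60, adjusted p = 0.0294). Basal-like cells held no Cyp2a4 UMI. Of the stretches of 50 bases in the last 500 bases of Cyp2a5 transcripts, 44.4% also occur in Cyp2a4 or another gene's transcripts, and the reverse share for Cyp2a4 is 44.3%. Reads could therefore be split or lost between them, and the counting rule for such reads was not among the labels used.

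The promoters of this pair are shown because the genes moved in opposite directions. They are the 250 bases before the RefSeq start in GRCm38.p6, both on the plus strand, chr7:26835089-26835338 for Cyp2a5 and chr7:26306942-26307191 for Cyp2a4, and capitals mark the bases that differ.
Cyp2a5: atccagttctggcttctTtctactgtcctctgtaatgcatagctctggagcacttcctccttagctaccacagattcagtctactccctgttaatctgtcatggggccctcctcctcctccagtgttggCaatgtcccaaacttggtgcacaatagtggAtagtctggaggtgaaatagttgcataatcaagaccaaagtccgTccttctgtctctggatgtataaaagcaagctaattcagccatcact
Cyp2a4: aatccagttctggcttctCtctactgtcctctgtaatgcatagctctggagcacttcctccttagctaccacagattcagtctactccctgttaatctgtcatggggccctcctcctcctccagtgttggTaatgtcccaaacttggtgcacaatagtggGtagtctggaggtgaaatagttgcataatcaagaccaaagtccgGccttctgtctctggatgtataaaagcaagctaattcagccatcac
Over the 249 bases that align, 245 are the same (98.4%) and 4 differ.

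Cyp4a12b, a fatty acid omega-hydroxylase, was close to absent from donor-derived cells. Secretory-like cells held 0.227, 0.658, 102, 75.7 and 152 CPM, with 6 donor-derived UMIs against 852 endogenous ones (log2 change -7.42, SE 0.30, adjusted p = 2.71e-11). In basal-like cells it was 0, 0, 3.19, 1.66 and 9.74 CPM, at least 8.10-fold lower in donor-derived cells at 3 counts per library (adjusted p = 0.0140). The ciliated-like values of 0, 0, 8.93, 6.89 and 32.7 CPM were at least 2.86-fold lower (adjusted p = 0.0263). Free RNA from secretory cells, scaled by the club cell transcript Scgb1a1, would give 8.63 and 8.15 CPM in the endogenous ciliated-like cells and 20.5 CPM in the control's. This estimate takes all Scgb1a1 in ciliated-like cells as free RNA and leaves out free RNA from cells other than secretory-like ones. It is therefore no upper bound for all free RNA. The measured levels were close to the estimate in the endogenous libraries and above it in the control. The part of free RNA in the ciliated-like call was not tested. In basal-like cells the same estimate was 0.256 and 0.121 CPM, below the endogenous levels. Of its stretches of 50 bases near the 3′ end, 37.0% also occur in the paralog Cyp4a12a or another gene.

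Cyp2f2, the naphthalene-activating P450 of club cells, was among the most abundant members. In basal-like cells it stood at 1711, 2117, 5057, 5467 and 6492 CPM, and both donor-derived libraries were below all others (log2 change -1.48, SE 0.13, adjusted p = 0.000598). In secretory-like cells its levels were 7640, 5774, 7342, 6897 and 10162 CPM, and the donor-derived libraries lay on either side of the endogenous ones (log2 change -0.09, SE 0.16, adjusted p = 0.781). Ciliated-like cells held 4910, 2473, 5278, 5168 and 5869 CPM (log2 change -0.50, SE 0.31, adjusted p = 0.433). In ciliated-like cells without the donor-derived cells of endogenous clusters, Cyp2f2 was at 3636 and 2413 CPM in donor-derived cells and passed (adjusted p = 0.0262).

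Free RNA from secretory cells can reach other droplets, and Scgb1a1, the club cell secretoglobin, was used to scale an estimate of it. Scgb1a1 was at 1190, 6008, 713, 526 and 2186 CPM in basal-like cells against 231570 to 329800 in secretory-like cells. Were all basal-like Scgb1a1 free RNA, the same source would give 39.3, 127, 18.4, 11 and 78.2 CPM of Cyp2f2. The levels measured there were 1711, 2117, 5057, 5467 and 6492 CPM. This estimate leaves out free RNA from cells other than secretory-like ones. For Cyp2a5 in endogenous basal-like cells the same estimate is 12.9 and 5.94 CPM, beside measured levels of 57.4 and 22.1. Lymphoid-like cells of the endogenous libraries, which should lack these enzymes, held 10.9 and 124 CPM of Cyp2a5 and 50.04 and 205 CPM of Cyp2f2. The day 56 basal-like level of Cyp2a5 is thus below that of the lymphoid-like cells of its library. Those lymphoid-like cells held 9377 CPM of Scgb1a1, beside 526 in basal-like cells of that library. On day 40 lymphoid-like cells held 539 CPM of Scgb1a1, and Cyp2a5 was higher in basal-like cells. The part of free RNA in the basal-like levels was not tested.

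Other P450s rose in donor-derived secretory-like cells. Cyp2b10, an enzyme induced by phenobarbital in liver, stood at 139, 89.8, 24.7, 34.6 and 43.2 CPM, with both donor-derived libraries highest (log2 change 1.93, SE 0.27, adjusted p = 0.00438). Cyp2s1, a P450 of barrier epithelia, was at 26.4, 19.5, 7.30, 4.79 and 6.96 CPM (log2 change 1.89, SE 0.25, adjusted p = 1.37e-05). In ciliated-like cells neither passed, with Cyp2b10 at 169, 199, 208, 194 and 208 CPM and Cyp2s1 at 231, 445, 422, 381 and 387 CPM. Cyp3a13, of the steroid- and drug-oxidising Cyp3a family, rose in secretory-like cells (9.09, 7.24, 4.67, 1.52 and 5.80 CPM, log2 change 1.35, SE 0.41, adjusted p = 0.0312). That call was lost in 5 of 13 alternatives: with DESeq2, at a clustering resolution of 2.0, when members were allowed to shape the clusters, with the unnamed luminal cluster joined and without the endogenous library of day 56. In basal-like cells Cyp3a13 was at 10.8, 18.3, 30.4, 30.4 and 40.4 CPM and did not pass (log2 change -1.07, adjusted p = 0.0504), but did with the recipient as a block (adjusted p = 0.00730).

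Cyp4b1, a lung P450 that activates 4-ipomeanol, fell in secretory-like cells, at 280, 258, 419, 394 and 593 CPM. In basal-like cells it was at 79.5, 129, 166, 190 and 237 CPM, and in ciliated-like cells at 220, 107, 368, 327 and 401 CPM. The donor-derived libraries were below the others in all 3 classes. Neither of the latter classes passed unblocked (adjusted p = 0.113 and 0.143), and both did with the recipient as a block (adjusted p = 0.00457 and 0.00695). Cyp4f15, of the leukotriene-hydroxylating Cyp4f group, fell in secretory-like cells (10.5, 7.90, 19.3, 15 and 15.7 CPM, log2 change -0.94, SE 0.24, adjusted p = 0.00688). In all, 3 of 12 tested P450s of families 2 to 4 fell in basal-like cells, 4 fell and 4 rose of 14 in secretory-like cells, and 1 fell and 1 rose of 12 in ciliated-like cells. Of all genes tested in these classes, 11.1%, 17.4% and 3.85% were called in either direction.

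**Figure D2:**
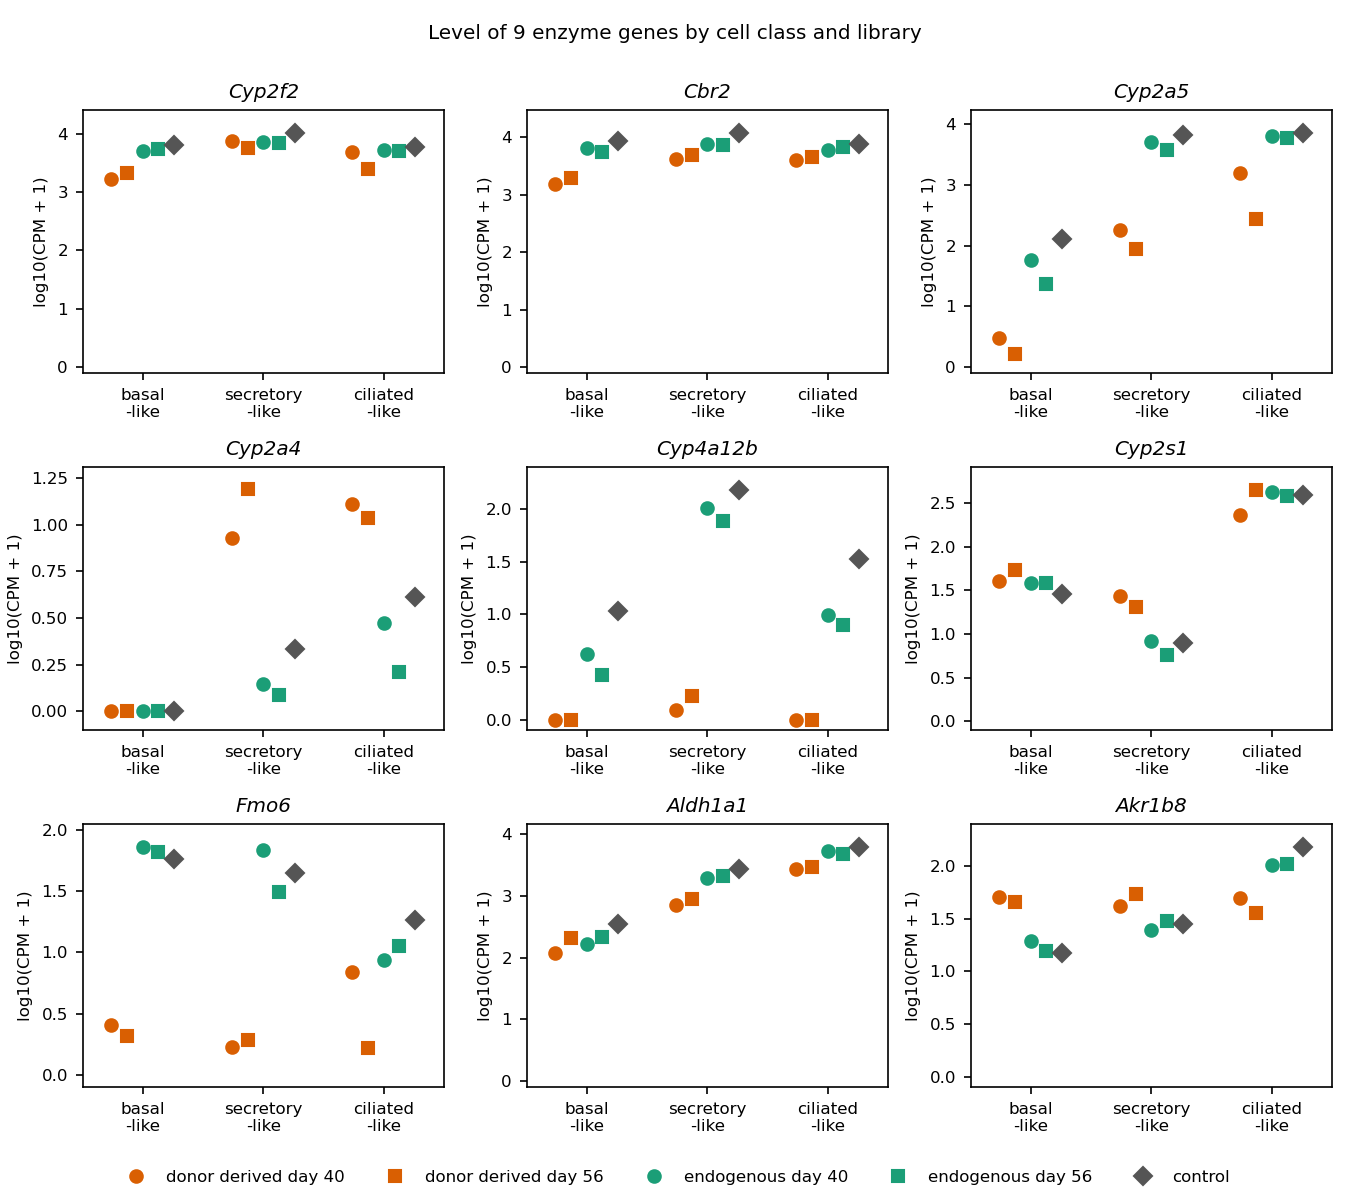
Level of 9 members (y axis, log10 of CPM + 1) in the 3 classes, 1 point per library (orange donor-derived, green endogenous, grey control; circles day 40, squares day 56). Cyp2a5, Cyp4a12b and Fmo6 sit far lower in the donor-derived libraries of basal-like and secretory-like cells, Cyp2f2 is lower there in basal-like cells only by the test, and Cyp2a4 has higher donor-derived points in secretory-like and ciliated-like cells.

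In basal-like cells Fmo6, Fmo1 and Fmo5 fell. Fmo6 was at 1.55, 1.07, 71.6, 65.3 and 57.1 CPM, and the donor-derived libraries held 26 UMIs against 404 in the smaller endogenous ones (log2 change -5.73, SE 0.24, adjusted p = 4.15e-05). Both donor-derived levels lay below every other library by a wide margin. Fmo1 was low at 0.552, 1.70, 4.35, 8.74 and 6.96 CPM (log2 change -2.46, SE 0.62, adjusted p = 0.0491). Fmo5 was at 5.74, 6.17, 19.7, 23.3 and 33.4 CPM (log2 change -1.86, SE 0.23, adjusted p = 0.00254). Fmo2, the main lung form, was the most abundant Fmo here, at 307, 533, 622, 642 and 756 CPM, and did not pass (log2 change -0.61, SE 0.27, adjusted p = 0.259).

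Fmo6 fell in secretory-like cells too, at 0.682, 0.922, 67.9, 30.2 and 43.5 CPM (log2 change -5.86, SE 0.84, adjusted p = 0.0453). Without the donor-derived library of either day, or at a clustering resolution of 2.0, the fall of Fmo6 no longer passed. Fmo1 was at 0.682, 7.77, 73.0, 90.1 and 105 CPM, with the donor-derived libraries apart from the rest but unlike each other, and did not pass (log2 change -4.06, SE 0.91, adjusted p = 0.152). Fmo2 did not pass, at 344, 365, 314, 287 and 394 CPM (log2 change 0.23, SE 0.13, adjusted p = 0.262).

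Fmo1, Fmo2 and Fmo6 lie in this order on the minus strand of chromosome 1 in GRCm38 (GENCODE vM21), from chr1:162829561-162866610 for Fmo1 through chr1:162874317-162898726 for Fmo2 to chr1:162916551-162937515 for Fmo6. Fmo2 is thus flanked on both sides by genes that fell in basal-like cells. The Fmo6 promoter is shown as that of the member, among those with a RefSeq promoter, with the largest fall in both classes at 20 CPM or more. It covers chr1:162937226-162937475 on the minus strand, before the RefSeq start, and holds neither motif searched, so no base is in capitals. This window lies wholly inside the GENCODE range of Fmo6 given above, and so holds no sequence upstream of the GENCODE start. Whether a motif lies upstream of the GENCODE start was not tested.
Fmo6: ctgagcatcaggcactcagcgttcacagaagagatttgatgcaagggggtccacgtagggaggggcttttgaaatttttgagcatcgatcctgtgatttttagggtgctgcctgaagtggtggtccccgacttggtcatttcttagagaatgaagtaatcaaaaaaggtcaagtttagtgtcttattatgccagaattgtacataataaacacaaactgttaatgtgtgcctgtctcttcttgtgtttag

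Of the alcohol dehydrogenases, Adh1, the classical ethanol and retinol enzyme, fell in both classes. It was at 3.20, 2.95, 18.0, 14.6 and 27.8 CPM in basal-like cells (log2 change -2.42, SE 0.27, adjusted p = 0.00181) and at 1.82, 2.77, 14.0, 10.0 and 12.8 CPM in secretory-like cells (log2 change -2.33, SE 0.33, adjusted p = 2.12e-05). Adh7, the retinol-active form of stratified epithelia, was at 197, 213, 345, 261 and 347 CPM in basal-like cells and at 192, 136, 271, 207 and 260 CPM in secretory-like cells. Both donor-derived libraries of Adh7 lay below both endogenous ones in each class. It passed with the recipient as a block (adjusted p = 0.0294 and 0.00445) and not without (0.0682 and 0.0899). Adh5, the glutathione-dependent formaldehyde dehydrogenase, fell in secretory-like cells by a small step, at 51.3, 53.7, 87.2, 73.1 and 102 CPM.

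Aldehyde dehydrogenases split in both directions. Aldh1a1, which makes retinoic acid from retinal, was at 726, 911, 2000, 2133 and 2764 CPM in secretory-like cells (log2 change -1.34, SE 0.15, adjusted p = 5.84e-07). In ciliated-like cells, where it was highest, it was at 2791, 2963, 5398, 4784 and 6180 CPM and did not pass (log2 change -0.82, SE 0.20, adjusted p = 0.0576). In basal-like cells the groups overlapped at 120, 210, 164, 215 and 352 CPM. Its close paralog Aldh1a7 fell in secretory-like cells, at 74.5, 79.9, 118, 117 and 168 CPM, and in basal-like cells only with the recipient as a block (adjusted p = 0.00519). Aldh3a1, the corneal and airway enzyme for aldehydes of lipid oxidation, fell in basal-like cells, at 19.9, 23.4, 78.3, 68.2 and 73.8 CPM (log2 change -1.78, SE 0.17, adjusted p = 0.000759). In secretory-like cells Aldh3a1 was at 11.4, 26.7, 86.2, 68.8 and 65.2 CPM and did not pass (log2 change -1.98, SE 0.51, adjusted p = 0.155).

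Aldh2, the mitochondrial acetaldehyde enzyme, fell in secretory-like cells, at 212, 280, 438, 404 and 542 CPM. With the unnamed luminal cluster of donor-derived cells (cluster 5) joined to the class, Aldh2 no longer passed (adjusted p = 0.1). Aldh1l1, a folate enzyme, had no UMI in donor-derived basal-like cells against 28 endogenous ones, at least 15.9-fold lower at 3 counts per library (adjusted p = 0.00350). In secretory-like cells it had 1 donor-derived UMI against 58, with endogenous cells 52.9-fold higher (95% counting interval 12.6 to 2934, adjusted p = 7.04e-05). Aldh1l1 reached the UMI minimum for members only through the endogenous libraries, a choice that favours this direction. Aldh6a1, of valine breakdown, fell in ciliated-like cells, at 21.4, 21.6, 52.2, 47.0 and 47.4 CPM (log2 change -1.20, SE 0.21, adjusted p = 0.0188).

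Aldh3b1 and Aldh7a1 rose. Aldh3b1, which oxidises long-chain lipid aldehydes, was at 16.7, 24.2, 1.74, 4.58 and 2.78 CPM in basal-like cells (log2 change 2.76, SE 0.43, adjusted p = 0.00821). In secretory-like cells it was at 32.5, 32.4, 16, 18.1 and 20.01 CPM (log2 change 0.92, SE 0.17, adjusted p = 0.000478). Ciliated-like cells held more Aldh3b1 than the other 2 classes, at 305, 520, 378, 410 and 340 CPM, with overlapping groups. Aldh7a1, of lysine breakdown and osmotic protection, was at 70.8, 66.2, 30.1, 25.8 and 30.6 CPM in basal-like cells (log2 change 1.27, SE 0.16, adjusted p = 0.00274). In secretory-like cells its levels were 45.9, 41.7, 20.7, 18.9 and 22.04 CPM (log2 change 1.13, SE 0.16, adjusted p = 2.47e-05). Of the tested Aldh genes, 2 fell and 2 rose of 14 in basal-like cells, 4 fell and 2 rose of 14 in secretory-like cells, and 1 fell of 14 in ciliated-like cells. The shares of all genes called in either direction were 11.1%, 17.4% and 3.85%.

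In the aldo-keto reductases, neighbouring genes moved apart. Akr1b3, the aldose reductase of the polyol pathway, fell in basal-like (30.8, 25.4, 55.4, 61.2 and 62.6 CPM), secretory-like (25.7, 26.6, 55.0, 64.6 and 52.8 CPM) and ciliated-like cells (36.9, 24.9, 61.2, 59.5 and 78.3 CPM). Its log2 change was -1.20 in secretory-like cells (SE 0.15, adjusted p = 5.01e-06) and -1.01 in ciliated-like cells (SE 0.23, adjusted p = 0.0438). Akr1b8, a related reductase of lipid aldehydes and retinal, was at 50.3, 45.1, 18.6, 14.6 and 13.9 CPM in basal-like cells (log2 change 1.49, SE 0.19, adjusted p = 0.00305) and at 40.7, 53.9, 23.5, 29.2 and 27.3 CPM in secretory-like cells (log2 change 0.85, SE 0.17, adjusted p = 0.00133). The order turned in ciliated-like cells, with 48.8, 34.7, 101, 105 and 152 CPM (log2 change -1.33, SE 0.20, adjusted p = 0.0106). Donor-derived Akr1b8 levels, scaled within each class, thus lay between 34.7 and 53.9 CPM in the 3 classes. Endogenous levels ran from 14.6 to 105 CPM. Of the Akr1b3 stretches of 50 bases, 26.4% also occur in other annotated genes, mostly predicted genes, and of the Akr1b8 stretches 4.66%.

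The Akr1b8 promoter, chr6:34353896-34354145 on the plus strand, is shown because it is that of the member with the largest rise in both classes that holds a searched motif. Capitals mark GCGTG, the core of the element bound by the aryl hydrocarbon receptor with Arnt, whose G starts 26 bases before the start.
Akr1b8: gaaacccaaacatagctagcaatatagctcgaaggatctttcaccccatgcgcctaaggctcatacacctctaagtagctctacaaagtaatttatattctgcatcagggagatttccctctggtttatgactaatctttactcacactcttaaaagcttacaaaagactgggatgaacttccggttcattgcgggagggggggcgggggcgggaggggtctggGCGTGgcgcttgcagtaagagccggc
In the same window, on either strand, 11 of 59 member promoters (18.6%) hold GCGTG, beside 28.2% of all 32851 RefSeq promoters. TGACNNNGC, the core of the antioxidant response element, occurs in 2 of 59 (3.39%), in Aldh9a1 and Cyp4f18, beside 10.2% of all. RefSeq promoters matched 54 of the 69 members.

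Akr1e1, which reduces anhydrofructose, fell in basal-like (8.61, 5.64, 27.8, 25.4 and 18.1 CPM; log2 change -1.93, SE 0.26, adjusted p = 0.00353), secretory-like (6.59, 5.40, 20.5, 16.8 and 17.7 CPM; log2 change -1.66, SE 0.25, adjusted p = 3.02e-05) and ciliated-like cells (17.9, 11.8, 34.7, 33.5 and 38.8 CPM; log2 change -1.27, SE 0.27, adjusted p = 0.0360). Akr1a1, the aldehyde reductase that also serves vitamin C synthesis in mice, fell in secretory-like cells, at 193, 179, 326, 317 and 297 CPM. The hydroxysteroid dehydrogenases Akr1c12 and Akr1c13 rose in secretory-like cells. Akr1c13 was at 23.6, 18.6, 13.0, 10.0 and 8.12 CPM (log2 change 0.85, SE 0.22, adjusted p = 0.00765), and Akr1c12 at 6.59, 5.79, 3.04, 1.96 and 1.45 CPM (log2 change 1.27, SE 0.39, adjusted p = 0.0266). In basal-like cells Akr1c13 rose too, at 26.5, 27.6, 16.2, 13.3 and 25.05 CPM, the control level being close to the donor-derived ones (log2 change 0.84, SE 0.19, adjusted p = 0.0307). Akr1c13 and Akr1c12 share 27% and 12% of their stretches with each other or other genes. Of tested Akr1 genes, 2 fell and 2 rose of 8 in basal-like cells, 3 and 3 of 9 in secretory-like cells, and 3 fell of 8 in ciliated-like cells. Among all genes, 11.1%, 17.4% and 3.85% were called in either direction.

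Cbr2, the tetrameric lung carbonyl reductase, was also among the most abundant members. Basal-like cells held 1521, 1936, 6593, 5510 and 8593 CPM, with donor-derived libraries below all others (log2 change -1.83, SE 0.15, adjusted p = 0.000601). Secretory-like cells held 4186, 4889, 7742, 7222 and 11652 CPM, again with the donor-derived libraries lowest, and Cbr2 fell there by 0.73 on the log2 scale. With the unnamed luminal cluster joined to the class it did not pass (adjusted p = 0.054). In ciliated-like cells it was at 4019, 4495, 6034, 6660 and 7482 CPM and did not pass. The free RNA estimate for Cbr2 in basal-like cells was 11.5 to 108 CPM in the 5 libraries. Cbr3, a prostaglandin and quinone reductase, fell in secretory-like cells (30.9, 22.6, 56.2, 50.9 and 62.6 CPM; log2 change -1.03, SE 0.17, adjusted p = 0.000110) and in ciliated-like cells (61.9, 71.4, 132, 110 and 146 CPM; log2 change -0.84, SE 0.18, adjusted p = 0.0370). In basal-like cells Cbr3 passed only with the recipient as a block (adjusted p = 0.0199). Cbr1, which also lies on chromosome 16, did not pass in any class, with adjusted p values of 0.144 to 0.681 and levels of 43.4 to 133 CPM.

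Of 6 carboxylesterases tested in secretory-like cells, Ces1g rose and Ces1h fell, beside 17.4% of all genes called there in either direction. Ces1d, the most abundant, hydrolyses triglycerides and drugs and did not pass in secretory-like cells, at 674, 692, 648, 645 and 670 CPM (log2 change 0.07, SE 0.13, adjusted p = 0.794). Ces1f was at 11.8, 18.4, 59.6, 120 and 40.6 CPM there and passed with the recipient as a block (adjusted p = 5.47e-09) and not without (0.134). Ces1g was low, at 3.86, 6.19, 1.42, 0 and 0.870 CPM, from 64 donor-derived against 7 endogenous UMIs, and rose without the block (log2 change 2.78, SE 0.73, adjusted p = 0.0242) but not with it (0.0696). The fall of Ces1h rested on no donor-derived UMI against 66 endogenous ones, at least 12.9-fold lower at 3 counts per library (adjusted p = 1.14e-06). Ces1g reached the UMI minimum for members only through the donor-derived libraries, and Ces1h only through the endogenous ones. That choice favours the direction seen for each. Ces1d, Ces1e, Ces1f, Ces1g and Ces1h lie in this order from chr8:93166068-93197838 for Ces1d to chr8:93351843-93379725 for Ces1h. In basal-like cells Ces2b (2.54, 3.31, 7.83, 7.07 and 9.74 CPM) and Ces2e (5.52, 3.40, 13.0, 9.57 and 5.57 CPM) fell, both close to the threshold and lost under 7 or more of 14 alternatives.

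A class-by-group interaction term asked whether the donor-derived difference was itself unequal in the 2 classes, and 8 of 61 members passed, beside 4.51% of 11646 genes. At a clustering resolution of 0.5, 5 passed. The share of all genes at that resolution is not given, so this count is not read as a result about the members. Cbr2 fell more in basal-like than in secretory-like cells by 1.11 on the log2 scale (SE 0.10, adjusted p = 2.78e-05). Aldh1a1 fell in secretory-like and did not pass in basal-like cells, a difference of 1.09 (SE 0.18, adjusted p = 0.00787). Cyp2s1 and Cyp3a13 rose in secretory-like cells and did not pass in basal-like cells, with differences of -1.58 (SE 0.35, adjusted p = 0.0306) and -2.41 (SE 0.53, adjusted p = 0.0406). Aldh3b1 rose more in basal-like cells, by 1.83 (SE 0.40, adjusted p = 0.0188). Akr1b10 and Ces1f were called for the difference without passing in either class, by 1.16 (SE 0.28, adjusted p = 0.0297) and 4.39 (SE 0.98, adjusted p = 0.0213), and Ces1f had only 16 UMIs in basal-like cells. Cyp2f2, which fell in basal-like cells and did not pass in secretory-like cells, was not among the 8 (difference -1.38, SE 0.32, adjusted p = 0.190).

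**Figure D3:**
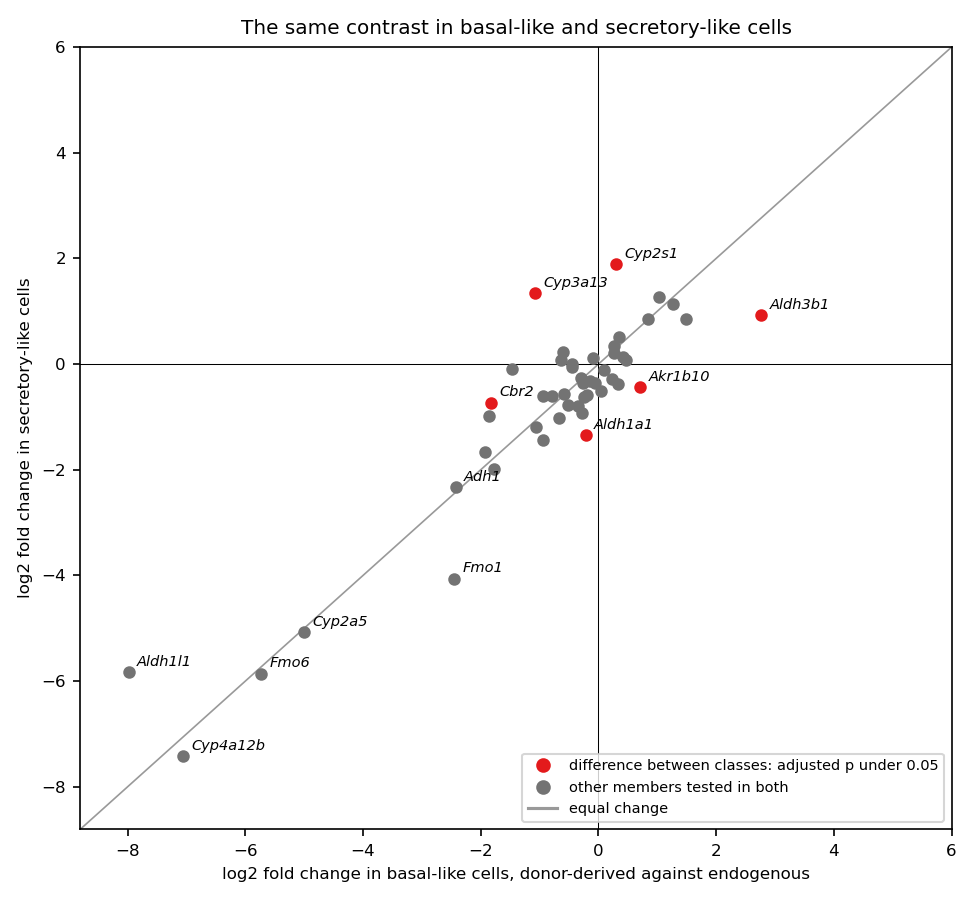
Log2 fold change of donor-derived against endogenous cells in basal-like cells (x axis) and secretory-like cells (y axis), 1 point per member shown, with the line of equal change. Red members are those shown whose change differed between the classes by the interaction test; Ces1f was not tested in basal-like cells alone and is not drawn, and Fmo6, Cyp2a5 and Cyp4a12b lie close to the line at the lower left.

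The levels by class are a description, since cells were grouped by expression. They were scaled within each class, so across classes they compare shares of unlike totals. In endogenous secretory-like cells the secretory markers alone summed to 385600 and 412881 CPM, beside 43266 and 56294 in ciliated-like cells. The leading class may differ on another scale, which was not tested. Of 39 members that reached 20 CPM in the endogenous libraries of at least 1 of the 3 classes, 15 were highest in secretory-like, 15 in ciliated-like and 9 in basal-like cells. Secretory-like cells led for Cbr2, Cyp2f2, Ces1d, Cyp4b1 and Cyp4a12b. Ciliated-like cells led for Cyp2a5, Aldh1a1, Cyp2s1, Aldh3b1 and Cyp2b10, and basal-like cells for Fmo2, Adh7, Fmo6, Aldh7a1 and Cyp3a13. For Adh7 and Fmo6 the endogenous libraries of the leading class overlapped those of the next class. Of 31 members at 20 CPM in both groups, 26 had the same leading class in donor-derived as in endogenous cells. The other 5 were Aldh2, Akr1a1, Akr1b8, Aldh3a1 and Cyp2j6. For Aldh2 and Aldh3a1 the libraries of the leading class overlapped those of the next class in both groups. For Akr1a1 and Akr1b8 they overlapped in the donor-derived group. Akr1b8 was highest in ciliated-like cells of the endogenous libraries and in basal-like cells of the donor-derived ones.

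Cells outside the 3 classes add to this picture. Cluster 7, which scored high for both basal and secretory markers and stayed unnamed, was drawn almost wholly from the endogenous and control libraries. Its Cbr2 level was 8806, 13097 and 15235 CPM in endogenous day 40, day 56 and control, and its Fmo6 level of 134, 229 and 186 CPM was above that of the 3 classes in the same libraries. Fmo6 was also among its 10 leading genes. Tuft-like cells, with 29 and 21 cells in the endogenous libraries, held more Adh1 than any of the 3 classes, at 264 and 216 CPM, and more Aldh2, at 923 and 1007 CPM, with little Fmo2 (11.3 and 0 CPM). Cluster 5, an unnamed luminal cluster of 417 and 69 donor-derived cells with Upk3a and Cldn18 among its leading genes, held 78.8 and 3.27 CPM of Cyp2a5, 128 and 66.2 CPM of Cyp2b10 and 0.317 and 0 CPM of Fmo6. Microfold-like cells, 205 and 26 in the donor-derived libraries, held 1759 and 1501 CPM of Cyp2f2 and 726 and 941 CPM of Cbr2, with no Fmo6 UMI on either day.

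**Figure D4:**
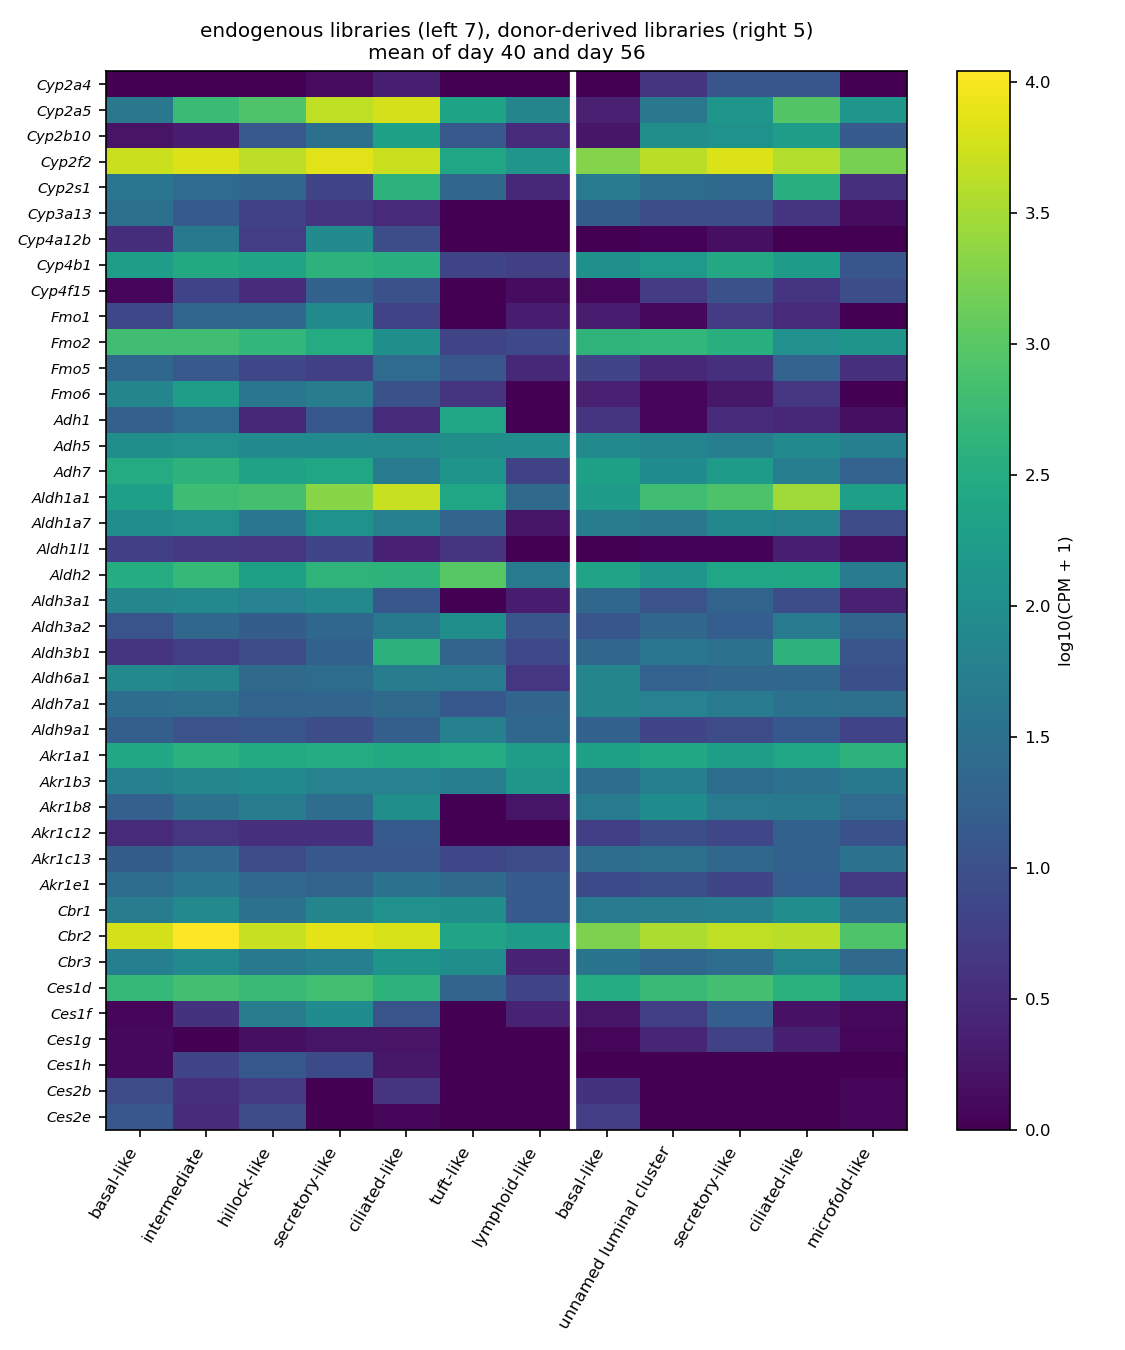
Mean level over day 40 and day 56 (colour, log10 of CPM + 1) of 41 members (rows, by family) in 7 cell groups of the endogenous libraries (left of the white line) and 5 of the donor-derived libraries (right). Cyp2f2 and Cbr2 are bright in every column but the tuft-like and lymphoid-like ones and are lower in the microfold-like one, Cyp2a5 is bright in endogenous secretory-like and ciliated-like columns, and Fmo6 and Cyp4a12b are dark in each donor-derived column.

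Other cell types in the classes were checked by their markers. In secretory-like cells the 9 myeloid markers (8 with any UMI there) summed to 130 and 242 CPM in donor-derived, 4484 and 9706 in endogenous and 2971 in control cells, mostly from Lyz2 (scaled level 105, 218, 4773, 10568 and 3334 CPM). At clustering resolutions of 0.5 and 2.0, Lyz2 was among the 10 leading genes of a secretory-like cluster. In ciliated-like cells the list summed to 856, 26.7, 1955, 4049 and 1840 CPM. The 9 hillock markers summed to 328 and 805 CPM in donor-derived against 92.1 and 48.7 in endogenous secretory-like cells. The part of these lists in the results was not tested. In basal-like cells the 10 secretory markers summed to 1959, 8011, 7145, 6183 and 11172 CPM, with the donor-derived libraries on either side of the endogenous ones, and the 10 tuft markers to 60.9, 48.4, 9.88, 8.40 and 1.46 CPM. In ciliated-like cells the same secretory list summed to 74690 CPM in the donor-derived library of day 40 and 29455 on day 56, beside 43266 and 56294 in the endogenous libraries. The part of this difference between the donor-derived ciliated-like libraries in the results was not tested.

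Endogenous cells were also set beside the control, which asks how far the epithelium of an injured and transplanted recipient differed from an uninjured one. One member differed by 2-fold or more from the control in both recipients, of 18 members in basal-like cells with at least 50 CPM and 10 counts. Cyp2a5 was lower in endogenous basal-like cells, at 57.4 and 22.1 CPM against 129 in the control (95% counting interval 104 to 159). The free RNA estimate, for RNA of secretory-like cells only, was 12.9 and 5.94 CPM in the endogenous libraries and 51.9 CPM in the control. Net of it, the control was 1.74-fold above day 40, under the 2-fold threshold, and 4.81-fold above day 56. Of all 2961 genes eligible there, 0.338% were lower and 1.49% higher. In secretory-like and ciliated-like cells 0 of 20 members each were 2-fold apart, beside 1.89% and 1.18% of genes higher and 0.111% and 0.202% lower in endogenous cells. No test was run against the single control library, and the interval covers counting error only.

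Partner genes of these enzymes were taken from 6 lists. Their counts stand beside those of all genes tested. Of these, 6.79% fell and 4.29% rose in basal-like cells, 9.77% and 7.61% in secretory-like cells, and 1.93% and 1.92% in ciliated-like cells. Por, the P450 reductase, fell in basal-like cells (170, 190, 274, 288 and 468 CPM, log2 change -0.66) and in secretory-like cells (514, 452, 876, 819 and 1199 CPM, log2 change -0.82). Of the 7 electron donors, 2 fell and 1 (Cyb5a) rose in basal-like cells, 2 fell in secretory-like cells and none was called in ciliated-like cells by edgeR. The block added Cyb5b as lower in secretory-like cells (adjusted p = 0.0495). Of the 18 tested genes of the Nrf2 antioxidant pathway, 2 fell in basal-like cells, 9 fell and 1 rose in secretory-like cells, and 4 of 17 tested fell in ciliated-like cells. With the recipient as a block, Txn1 rose and Prdx1 fell in basal-like cells, G6pdx rose in secretory-like cells, and Slc7a11 no longer passed there (adjusted p = 0.110). Nqo1, the quinone reductase, was at 0, 0.132, 3.04, 5.00 and 2.61 CPM in secretory-like and at 7.14, 2.62, 26.8, 25.7 and 28.3 CPM in ciliated-like cells, and fell in all 3 classes. Gclm, the glutathione synthesis subunit, was at 126, 153, 499, 517 and 462 CPM in basal-like cells (log2 change -1.88, adjusted p = 0.000401).

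Some conjugating enzymes had large differences. In basal-like cells 8 fell and 1 rose of 21 tested, in secretory-like cells 8 fell and 1 rose of 20, and in ciliated-like cells 1 rose of 16. With the recipient as a block these counts were 10 and 1, 9 and 1, and 1 lower and 2 higher. Over all genes the block gave 1075 lower and 973 higher of 11551, 1128 and 910 of 10501, and 277 and 279 of 10513. The block added Gstm2 and Ephx1 (basal-like), Gstm1 (secretory-like) and Gsta3 (ciliated-like) as lower and Mgst1 (ciliated-like) as higher. Sult1d1, a catecholamine sulphotransferase, was at 19.1, 12.8, 1427, 1374 and 1527 CPM in basal-like cells and at 10.5, 6.85, 709, 810 and 631 CPM in secretory-like cells. The glucuronosyltransferase Ugt2b34 was at 2.32, 0.805, 112, 102 and 120 CPM in basal-like cells, and Mgst1, a microsomal glutathione transferase, rose there (330, 525, 156, 157 and 175 CPM). Of the retinoid genes, the receptor gene Rarb rose in basal-like and secretory-like cells. The block added Stra6 (higher) and Dhrs9 (lower) in basal-like cells and Dhrs9 (higher) in ciliated-like cells. Of the xenobiotic receptors, Ahr rose (119, 148, 82.8, 99.7 and 83.8 CPM) and Rxra fell in secretory-like cells, and none was called in basal-like or ciliated-like cells by edgeR without the block. With the recipient as a block, Ahr also rose in basal-like cells (log2 change 0.57, adjusted p = 0.014). Among efflux pumps, Abcc3 fell and Abcc5 rose in basal-like cells, and Abcc1, Abcc3 and Abcc4 fell in secretory-like cells. The block added Abcb1b (higher) and Abcc4 (lower) in basal-like and Abcc5 (higher) in ciliated-like cells.

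The remaining 27 members were called in no class and stayed under a mean of 50 CPM in every epithelial group. They include Cyp2j6 and Cyp2j9, 4 Cyp4f genes, Aldh4a1, Ces1e and the 4 P450s of sterol, retinoid or unknown substrates. In all, 34 of the 69 members were called in no class, and 6 were tested in none.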

How the data were processed

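Per the labels' protocols, live tracheal cells were profiled by droplet single-cell RNA sequencing (10x Chromium). The deposited values are whole UMI counts per gene and barcode on a joint mouse (GRCm38) and human (GRCh38) reference. Cell Ranger, STARsolo and Seurat are named in the submitters' processing notes, and the step that made the matrices is not given in the sources. Barcodes with over 10% human UMIs, under 500 genes or over 20% mitochondrial UMIs were left out, as were doublets called within libraries (48, 0.727%). Cells were clustered with scanpy 1.11.5 (2000 variable genes without the members, 30 components, Leiden resolution 1) and named from marker lists. The counts of a class were added up per library and tested with edgeR 4.0.16 (TMM, filterByExpr, quasi-likelihood, Benjamini-Hochberg over all genes) in R 4.3.3. The standard error is the log2 change divided by the root of F.

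The members, lists and the rule for naming clusters were chosen with earlier results of these data known. Named are members that were called or reached a mean of 50 CPM in an epithelial group, with fold and p for up to 12 per class and direction. Replicate numbers pair the donor-derived and endogenous libraries, since both of a day come from one recipient. Alternatives were a recipient block, DESeq2 1.42.0, other size factors, filters, clusterings and class borders, and each library left out. On simulated counts of 11318, 10391 and 10285 genes (basal-like, secretory-like, then ciliated-like cells), 62%, 68% and 49% of changes of 1 log2 unit and 98%, 98% and 96% of 2 log2 units were recovered. Every simulated gene had the same dispersion, with no effect of day or animal, and changes were set only in genes above a minimum expected count. Recovery for low counts or for genes whose libraries vary more was not tested. Promoters and gene positions are from RefSeq (GRCm38.p6) and GENCODE vM21. All 69 members matched GENCODE. Intervals and bounds (3 counts per library) cover counting error only. Some results are not reported here.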

Additional observations from a re-analysis of the deposited data

Results flagged for a closer look

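For several members the donor-derived minus endogenous log2 difference was unequal in basal-like and secretory-like cells by the interaction test. The difference between the classes (basal-like minus secretory-like) was -1.11 for Cbr2, -1.58 for Cyp2s1 and -2.41 for Cyp3a13. It was 1.09 for Aldh1a1, 1.16 for Akr1b10, 1.83 for Aldh3b1 and 4.39 for Ces1f.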

How the results depend on the processing

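Leaving out each library in turn gave 6 to 24 members lower and 0 to 4 higher in basal-like cells, 15 to 22 lower and 7 to 10 higher in secretory-like cells, and 0 to 21 lower and 0 to 2 higher in ciliated-like cells. A group left with 1 library was assumed to vary like the other. In all 3 classes, more of all genes were called lower without either donor-derived library, and fewer without either endogenous one. The ranges of member counts are therefore not read as a result about the members. Without the low-count filter, 25 members were lower in basal-like cells, beside 1200 of all 17288 genes. DESeq2 called 6 higher in secretory-like cells, beside 454 of all 10501 genes. It called 3 lower and 0 higher in ciliated-like cells (12 with an unadjusted p under 0.05), beside 138 and 170 of all 10513. Without donor-derived cells in endogenous clusters, an alternative chosen after seeing the data, 14 were lower in ciliated-like cells, and 687 of all 10518 genes in place of 203 of 10513. Joining clusters 7 and 5 to the basal-like and secretory-like classes was also chosen after seeing the data. At a clustering resolution of 0.5, 5 members passed the interaction test, and the share of all genes there is not given. Against the control, 4 of 18 basal-like members were lower in endogenous cells at 1.5-fold (46 lower and 96 higher of 2961 genes), and 2 of 19 were lower at 2-fold in plain CPM (18 and 41 of 2956). At 1.5-fold, 1 of 20 secretory-like members was lower (15 lower and 56 higher of 1802 genes). Ciliated-like Fmo2, at 0.04 and not called, turned to -1.29 (adjusted p = 0.00212 by edgeR) without the donor-derived library of day 40 and was 0.81 without that of day 56. No called member changed sign under any alternative run. With the recipient as a replicate block, 21 were lower and 5 higher in basal-like cells, 21 and 9 in secretory-like cells, and 7 and 1 in ciliated-like cells. Over all genes these were 1075 and 973 of 11551, 1128 and 910 of 10501, and 277 and 279 of 10513. Beyond the changes given with the results, the block added Akr1b10 and Cyp2j9 in basal-like and Akr1c18 in secretory-like cells (adjusted p = 0.0415, 0.0446 and 5.58e-05 by edgeR), and changed no other member's call. The 41 ciliated-like cells of the donor-derived library of day 40 and the 71 basal-like cells of the control set the lowest depth.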
